A study of Mus musculus with 9 samples.

Results

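The comparison of all restrained with all unrestrained mice used the 6 ventral hippocampus libraries of mice that had been through chronic restraint, 3 of them exercised afterwards, and the 3 libraries of sedentary mice without restraint, so that all 9 libraries of the study entered it. Members were taken by label alone, and the genes described are those whose values stood on the same side of the unrestrained mice in both restrained groups. All 9 animals were wild-type male C57BL/6J mice, 8 weeks old when they were housed, and the labels put every library in batch 1. The unrestrained group is called SED below. The restrained, stress-susceptible group (SUS) was held in ventilated tubes for 2 hours a day on 14 days in a row. The restrained and exercised group (SUS_LE) had the same restraint in mice classed as stress-susceptible, followed by 2 weeks of low-intensity treadmill exercise. When tissue was taken in each group is not given in the labels. Exercise, age at collection and time since restraint therefore cannot be told apart in SUS_LE against SUS. The labels do not say how susceptibility was scored, and restrained mice not classed as susceptible were not analysed here, so that restraint and susceptibility cannot be told apart. RNA was made with RNAiso Plus and the libraries with the CORALL RNA-seq V2 kit, and each library held between 14172344 and 15582304 gene counts.

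Restraint is a standard way of giving rodents repeated psychological stress. It activates the hypothalamus, pituitary and adrenal cortex, and the glucocorticoid released reaches the hippocampus, where its receptors Nr3c1 (the glucocorticoid receptor) and Nr3c2 (the mineralocorticoid receptor) are abundant and act as transcription factors. The ventral hippocampus is the part of this structure most tied to anxiety and emotion, and synaptic activity there switches on immediate-early genes such as Fos, Arc and Nr4a1, many of them through a cyclic AMP response element (CRE) bound by the transcription factor CREB.

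Of 40213 genes in the count tables, 16106 were expressed highly enough to be tested, and these held 99.9% of the counts. None passed an adjusted p of 0.05 for the 6 restrained against the 3 SED mice in edgeR's quasi-likelihood test with Benjamini-Hochberg adjustment, which is 0% of the genes tested, and so no gene met the strict form of a shift shared by both restrained groups. The smallest adjusted p was 0.116, shared by the predicted gene Gm32584 and by Doc2a, a calcium sensor of synaptic vesicle release. Lrp6, a co-receptor for Wnt ligands, followed at 0.431, and 60 further genes shared 0.442. Without adjustment 1425 genes (8.85%) had a p under 0.05, of which 701 (4.35%) had higher and 724 (4.5%) lower values in restrained mice. DESeq2 and limma with voom weights also called 0 genes; DESeq2 gave no adjusted p for 14364 genes and called 1 gene, Chtf8, which had opposite signs in the restrained groups, when its independent filtering was switched off. The count depended on a single library. Leaving out SUS 3 raised it to 110 genes, 6 higher and 104 lower, while no other single library took it above 1 (Gm26444 without SED 2, Chtf8 without SED 3, Rnu2-10 without SUS_LE 1 and Gm20604 without SUS_LE 2). Without a filter on low counts 146 genes passed, 28 higher and 118 lower, and 65 of them were among the 110.

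As a description by mouse, 344 genes (2.14% of those tested) had all 6 restrained libraries above all 3 SED libraries, and 292 genes (1.81%) had all 6 below. Values differed in the same direction from SED in both restrained groups for 10320 genes (64.1%). The 2 comparisons share the SED libraries, so this count is not independent support for a common shift. Among the genes with all 6 libraries above SED the median size of the log2 difference was 0.18 in SUS and 0.14 in SUS_LE, and among those below it was 0.21 and 0.16. The unexercised group stood farther from SED in 61.0% of the former and 69.9% of the latter, against 56.7% of all tested genes. SUS 3 was the restrained library nearest to SED for 76 of the 344 genes and 63 of the 292, more often than any of the other 5, which ranged from 34 to 64 and from 30 to 59 genes.

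Choroid plexus markers differed widely between libraries. The summed level of 6 choroid plexus markers (Ttr, Folr1, Kl, Clic6, Kcnj13 and Aqp1) was 3160 to 4640 CPM (a gene's count scaled to a common library size) in SED, 50 to 6490 in SUS and 86.1 to 1610 in SUS_LE, and none of the 6 was at 0 in any library. The choroid plexus is the sheet of secretory epithelium that makes cerebrospinal fluid and lies against the hippocampus. Ttr, its carrier protein for thyroid hormone, was at 4310, 3540 and 2930 CPM in SED, 27.4, 2660 and 6080 in SUS and 83.2, 1510 and 59.6 in SUS_LE, so that SUS 1, SUS_LE 1 and SUS_LE 3 were lowest. These same 3 libraries stood apart from the others on the first principal component, which took 30% of the variance. In bulk tissue, fewer cells of a type and less RNA per cell cannot be told apart. Markers of hippocampal pyramidal and granule cells summed to 401 to 460 CPM in SED, 391 to 449 in SUS and 411 to 472 in SUS_LE, with none at 0. The 4 striatal markers, all higher over the restrained mice, summed to 9.34 to 15.8 CPM in SED, 16.2 to 19.8 in SUS and 11.3 to 21.8 in SUS_LE, also with none at 0. Astrocyte markers (1 of 4 higher) summed to 4220 to 4490, 3850 to 4020 and 4240 to 4450 CPM, and oligodendrocyte markers (0 of 5 higher) to 2710 to 2930, 2300 to 2640 and 2330 to 2900. The SUS mice were thus all above SED in these summed striatal markers and all below it in these summed astrocyte and oligodendrocyte markers. Longer lists differed from this: 24 of 40 astrocyte genes had higher values over the restrained mice, with a median of 0.03 in SUS. By mean centred log2 CPM over a striatum and thalamus list, SED was at -0.07, 0.09 and -0.02. SUS was at -0.14, 0.03 and 0.19 there, so only SUS 3 was above all SED mice. The part of these tissues in the results was not tested. Leaving out the 3 libraries lowest in Ttr gave 8 called genes (2 higher, 6 lower), with 1049 genes wholly above and 981 wholly below SED among the 3 restrained libraries that remained.

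Doc2a stood first among the genes with higher values in restrained mice. It was at 6.81, 7.71 and 6.96 CPM in SED, 11.7, 12.1 and 11.4 in SUS and 9.86, 10.1 and 11.3 in SUS_LE. Every restrained mouse was above every SED mouse, and the 3 exercised mice lay between the SED and the SUS mice, the nearest at 11.3 against 11.4. The log2 difference was 0.63 ± 0.11 (SE, 6 against 3; unadjusted p 1.44e-05, adjusted p 0.116), and SUS_LE against SUS gave -0.17 ± 0.12 (adjusted p 0.535). Over the 22 alternative settings it ranged from 0.59 to 0.68 with adjusted p from 0.00109 to 0.893, and it passed the threshold in 2. Exons of Doc2a share bases with Ino80e on the opposite strand in the GENCODE M21 annotation, and whether the counting used strand is not given in the sources used here.

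The other 11 of the 12 highest-ranked genes with higher values had log2 differences from 0.17 to 0.48, all at an adjusted p of 0.442. All 6 restrained libraries were above SED in 10 of the 12, against 2.14% of all tested genes. The 12 were picked by p in these same libraries, so this count is not independent support. Pbx3, a homeodomain transcription factor, was at 7.37, 7.22 and 6.69 CPM in SED, 9.69, 10.3 and 9.32 in SUS and 9.58, 10.1 and 10.3 in SUS_LE (0.48 ± 0.11). Both restrained groups of Pbx3 were at the same height, with SUS_LE against SUS at 0.03 ± 0.12. Tuba4a, an alpha-tubulin, was at 224, 228 and 222 CPM in SED, 285, 266 and 256 in SUS and 238, 241 and 236 in SUS_LE (0.17 ± 0.04). Its 3 groups did not overlap, with the exercised mice nearest SED (SUS_LE against SUS, unadjusted p 0.00228, adjusted p 0.146). Gng3, a G-protein gamma subunit of neurons, followed the same order with 137, 154 and 164 CPM in SED, 195, 178 and 187 in SUS and 168, 170 and 167 in SUS_LE.

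Nr4a1, an orphan nuclear receptor and immediate-early gene, was at 30.4, 33.3 and 32.4 CPM in SED, 47.2, 47.3 and 37.6 in SUS and 34.0, 34.8 and 39.3 in SUS_LE. All 6 restrained mice were above SED, 2 of the SUS mice by the most (0.32 ± 0.08). With the choroid plexus score as a covariate the difference was 0.21, and without the 3 libraries lowest in Ttr it was 0.26. Uqcc2, which takes part in the assembly of respiratory complex III, was at 38.8, 38.9 and 36.8 CPM in SED, 48.5, 44.3 and 45.2 in SUS and 41.7, 46.3 and 44.2 in SUS_LE (0.24 ± 0.06). Rexo4, Entpd4b, A430005L14Rik and Ccl27a also had all 6 restrained mice above SED, with differences of 0.29, 0.27, 0.45 and 0.24. Entpd4b has a near-identical copy, Entpd4, so its count is uncertain. Bbln (0.36) and Mib2 (0.22), a ubiquitin ligase of the Notch pathway, had 1 exercised mouse level with the highest SED mouse. SUS stood farther from SED than SUS_LE in 9 of the 12 genes, against 56.7% of all tested genes. For SUS_LE against SUS, 5 (Rexo4, Gng3, Nr4a1, Tuba4a and Mib2) had an unadjusted p under 0.05, as 13.7% of all tested genes did. None passed after adjustment.

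**Figure D1:**
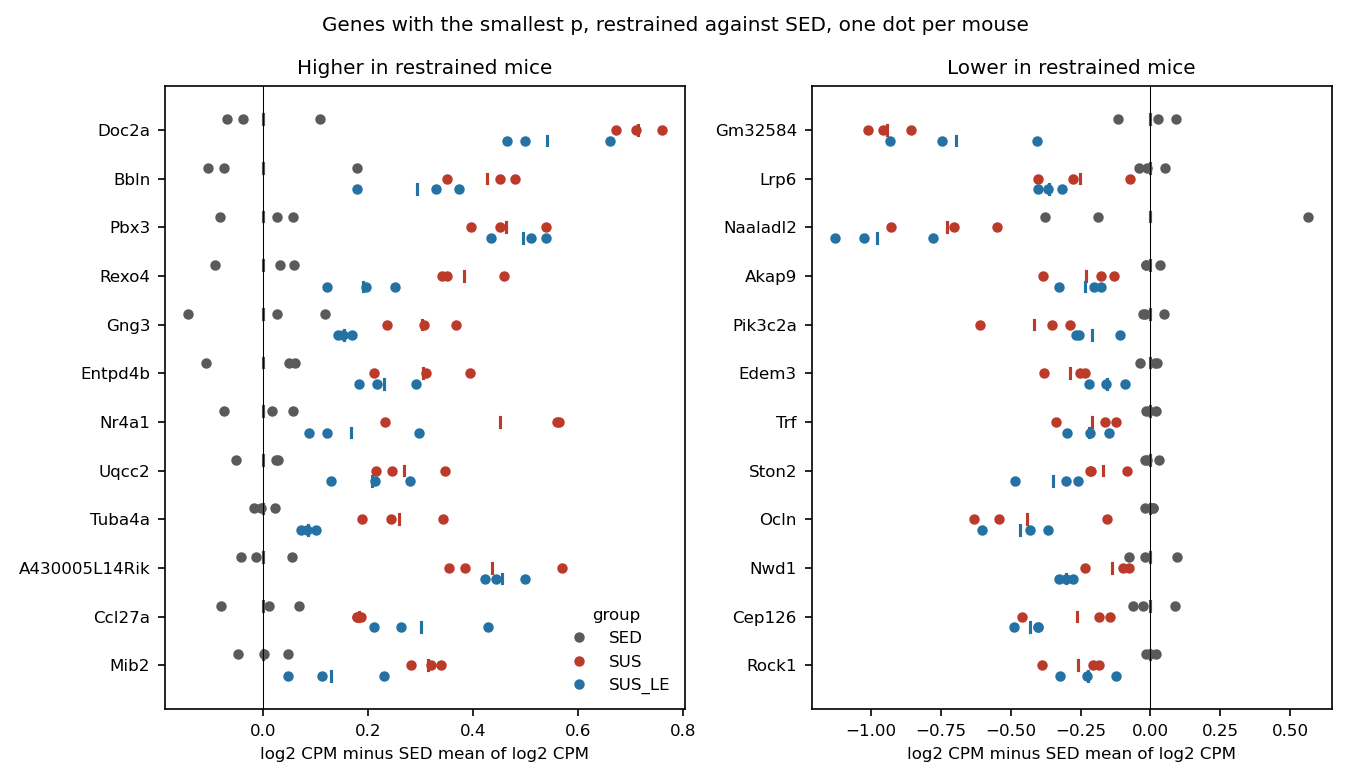
Log2 CPM of the 12 highest-ranked genes with higher (left) and the 12 with lower (right) values in restrained mice, as a difference from the mean of the 3 SED libraries; each dot is a mouse, grey for SED, red for SUS and blue for SUS_LE, and each short bar is a group mean. Doc2a lies farthest to the right, Gm32584 and Naaladl2 farthest to the left, and red and blue dots are apart for Tuba4a and Nwd1 but mixed for Pbx3 and Trf.

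Gm32584, a predicted gene, had the smallest p of all. It was at 8.36, 7.99 and 7.23 CPM in SED, 4.33, 3.89 and 4.04 in SUS and 4.11, 4.68 and 5.92 in SUS_LE. No restrained mouse reached the lowest SED mouse, and the highest of the 6 was SUS_LE 3. The log2 difference was -0.81 ± 0.14 (unadjusted p 1.31e-05, adjusted p 0.116) and lay between -0.89 and -0.75 in all 22 alternatives, with adjusted p from 0.00015 to 0.893 and 3 of them past the threshold.

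Lrp6 was at 87.8, 84.1 and 82.4 CPM in SED, 64.1, 69.9 and 80.6 in SUS and 64.1, 65.7 and 68.1 in SUS_LE. No restrained mouse reached the lowest SED mouse, but SUS 3 came close to it, and without it the difference moved from -0.30 ± 0.06 to -0.35 (adjusted p 0.00483). With the choroid plexus score as a covariate it was -0.20. Ocln, the tight-junction protein occludin, had the same layout with 14.8, 14.5 and 14.8 CPM in SED, 9.49, 10.1 and 13.2 in SUS and 10.9, 11.4 and 9.67 in SUS_LE (-0.45 ± 0.11, and -0.28 with the covariate). In the set without SUS 3, 110 genes passed the threshold, and 10 of the 24 highest-ranked genes were among them. These were Doc2a, Bbln, Nr4a1, Gm32584, Lrp6, Akap9, Edem3, Trf, Ston2 and Ocln. The 24 had been picked by p with these same libraries in the fit, so this count is not independent support.

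Trf, the iron carrier transferrin, which oligodendrocytes make in the brain, was at 125, 124 and 127 CPM in SED, 99.2, 112 and 115 in SUS and 113, 108 and 102 in SUS_LE (-0.21 ± 0.05, and -0.13 with the choroid plexus covariate). The restrained groups overlapped each other and lay below SED. Edem3, which helps to mark misfolded glycoproteins for removal from the endoplasmic reticulum, was at 73.1, 73.4 and 70.4 CPM in SED, 55.5, 60.7 and 61.4 in SUS and 62.1, 67.9 and 64.7 in SUS_LE (-0.22 ± 0.05). Pik3c2a, a class II phosphoinositide 3-kinase, was at 33.4, 33.6 and 35.2 CPM in SED, 22.3, 27.9 and 26.7 in SUS and 31.6, 28.3 and 28.5 in SUS_LE (-0.31 ± 0.07). In Edem3 and Pik3c2a every exercised mouse was above every unexercised restrained mouse.

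Ston2, an adaptor of endocytosis, stood the other way round, with 45.4, 45.2 and 46.8 CPM in SED, 39.5, 39.4 and 43.2 in SUS and 38.3, 37.1 and 32.7 in SUS_LE (-0.26 ± 0.06), the exercised mice being lowest. Nwd1 shared that order (-0.22 ± 0.05) but had SUS 2 level with the lowest SED mouse. Akap9, a scaffold of protein kinase A at the Golgi and centrosome, and Rock1, a kinase that acts on the actin cytoskeleton, had differences of -0.23 ± 0.05 and -0.24 ± 0.06, with all 6 restrained mice below SED. Cep126, a centrosomal protein, was at 22.1, 20.4 and 19.9 CPM in SED against 14.8 to 18.8 in the 6 restrained mice (-0.35 ± 0.08, and -0.23 with the choroid plexus covariate). Akap9 was at -0.14 with it. Naaladl2 had a difference of -0.90 ± 0.21, and of -0.56 without SED 1, at a low level: 6.60, 3.43 and 3.92 CPM in SED, of which SED 1 was far above the others, and 2.04 to 3.05 in restrained mice. Of the 12 genes 11 had all 6 restrained libraries below SED, against 1.81% of all tested genes. These 12 too were picked by p in these same libraries, so this count is not independent support. SUS was farther from SED than SUS_LE in 4 of the 12, against 56.7% of all tested genes. Pik3c2a, Edem3, Ston2 and Nwd1 had an unadjusted p under 0.05 for SUS_LE against SUS, as 13.7% of all tested genes did. None passed after adjustment.

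Akap9 shares exon bases with Cyp51, a sterol demethylase of cholesterol synthesis, on the opposite strand. Cyp51 was at 58.5, 58.1 and 58.1 CPM in SED, 48.5, 48.8 and 50.0 in SUS and 53.7, 52.4 and 51.5 in SUS_LE (-0.20 ± 0.05, adjusted p 0.442). All 6 restrained mice were below SED, and the unexercised ones lowest. Reads from overlapping genes cannot be told apart where strand is not used. Of the 24 highest-ranked genes 22 were in the annotation and 9 shared exon bases with another gene. Trf was among the 9 and shared bases with Gm20425 on the same strand, where strand cannot separate reads.

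Genes that glucocorticoids regulate had mostly slightly higher values. Of 36 tested genes on this list 26 had higher values in restrained mice, against 51.2% of all tested genes, with a median log2 difference of 0.06 against 0.0038. An unadjusted p under 0.05 with higher values, as 4.35% of all tested genes had, was found for 4 genes (Mt1, Nr4a1, Per1 and Pdk4) and with lower values (4.5%) for 0. All 6 restrained libraries were above SED for 4 genes (2.14% of all tested genes). Mt1, a metal-binding metallothionein, was at 185, 200 and 180 CPM in SED, 221, 209 and 200 in SUS and 221, 206 and 222 in SUS_LE (0.18 ± 0.05, adjusted p 0.442, and 0.11 with the choroid plexus covariate), with both restrained groups at the same height and SUS 3 level with SED 2 to the digits shown. Per1, a clock gene that glucocorticoids also induce, was at 50.5, 59.6 and 56.2 CPM in SED, 76.5, 64.9 and 69.1 in SUS and 60.6, 58.9 and 61.1 in SUS_LE (0.23 ± 0.06). The SUS mice were above SED and the exercised mice overlapped it (SUS_LE against SUS, unadjusted p 0.0058, adjusted p 0.18). Fkbp5, a chaperone that responds strongly to glucocorticoids, was at 44.0, 36.2 and 39.7 CPM in SED, 43.6, 40.5 and 35.9 in SUS and 45.2, 49.3 and 33.7 in SUS_LE (0.05 ± 0.12), and its groups overlapped. The sign of the Fkbp5 difference turned without SED 2 (-0.02) and without SUS_LE 2 (-0.01). The receptors Nr3c1 (-0.07 ± 0.05) and Nr3c2 (-0.16 ± 0.10) overlapped SED in restrained mice and had adjusted p of 0.722 and 0.673, although the 3 SUS mice were below all SED mice for Nr3c2.

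Immediate-early genes differed among themselves. Of 32 tested, 21 had higher (51.2% of all tested genes) and 11 lower values, with a median of 0.14. An unadjusted p under 0.05 was found for 6 with higher (4.35% of all tested genes) and 1 with lower values (4.5%). Nr4a1, Fosb (0.46), Npas4 (0.52), Arc (0.26), Per1 and Egr3 (0.13) were the 6, and Sik1, a kinase that CREB induces, was the 1 (-0.29). Arc, which acts at the postsynaptic density, was at 36.3, 37.7 and 42.3 CPM in SED, 43.0, 50.6 and 53.9 in SUS and 42.0, 49.2 and 40.5 in SUS_LE, so that the SUS mice were above SED and the exercised mice overlapped it. The Arc difference was 0.41 with the choroid plexus covariate (adjusted p 0.262) and 0.38 without the 3 libraries lowest in Ttr. Fos itself was at 5.06, 7.01 and 8.45 CPM in SED, 4.12, 6.38 and 6.31 in SUS and 5.0, 5.39 and 6.19 in SUS_LE (-0.30 ± 0.17, adjusted p 0.634), overlapping throughout. Bdnf, a growth factor of synaptic plasticity, overlapped too (0.11 ± 0.07).

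Neuropeptide genes had a median of 0.16 over 22 tested genes, of which 18 had higher values (51.2% of all tested genes). The median was 0.11 with the choroid plexus covariate and 0.10 without SED 1. An unadjusted p under 0.05 with higher values (4.35%) was found for 6 and with lower values (4.5%) for 0: Vgf (0.16), Pnoc (0.38), Vip (0.24), Npy (0.15), Tac2 (0.46) and Cck (0.09). The mean centred log2 CPM of the list was -0.07, -0.06 and -0.08 in SED, 0.09, 0.07 and 0.07 in SUS and -0.01 in each SUS_LE mouse. The 3 groups did not overlap on this score, and the exercised mice lay between the others. Pnoc, the precursor of nociceptin, was at 4.84, 4.98 and 4.66 CPM in SED, 7.56, 7.63 and 5.62 in SUS and 5.0, 6.11 and 5.85 in SUS_LE. Pnoc was the only one of the 22 with all 6 restrained libraries above SED (2.14% of all tested genes).

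Genes of synaptic vesicle fusion had higher values in 39 of 51 cases (51.2% of all tested genes), with a median of 0.07. An unadjusted p under 0.05 was found for 17 with higher values (4.35%) and 1 with lower (4.5%), Doc2b (-0.16), and 6 had all 6 restrained libraries above SED (2.14%): Doc2a, Vamp2, Syt13, Syn1, Syn3 and Syp. Vamp2, the vesicle SNARE synaptobrevin, was at 808, 881 and 840 CPM in SED, 1090, 978 and 933 in SUS and 906, 913 and 907 in SUS_LE (0.18 ± 0.05, adjusted p 0.485, and 0.10 with the choroid plexus covariate). Its exercised mice lay below all SUS mice and above all SED mice. Stx1a, the plasma membrane SNARE, and Cplx1, a clamp of the fusion machinery, had differences of 0.28 and 0.25 in SUS but 0.07 and 0.04 in SUS_LE, with unadjusted p of 0.00426 and 0.00172 between those groups. Syn3 had 0.15 in SUS and 0.22 in SUS_LE. The mean centred log2 CPM of the vesicle fusion list was -0.09, -0.01 and -0.06 in SED. It was 0.08, 0.1 and -0.03 in SUS and -0.01, -0.01 and 0.03 in SUS_LE. On this score SUS 3 lay within the SED range, and SUS_LE 1 and 2 were level with SED 2 to the digits shown.

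Cytosolic ribosomal protein genes mostly had higher values in restrained mice. Of 82 tested, 78 had higher values (51.2% of all tested genes), 28 had an unadjusted p under 0.05 with higher (4.35%) and 0 with lower values (4.5%), and 15 had all 6 restrained libraries above SED (2.14%). Their median was 0.09, with single genes between -0.02 and 0.18. Their mean centred log2 CPM was -0.05, -0.07 and -0.06 in SED, 0.07, 0.02 and 0.03 in SUS and 0.03, -0.01 and 0.04 in SUS_LE, so every restrained mouse was above every SED mouse. The list median was 0.05 with the choroid plexus covariate, 0.06 without the 3 libraries lowest in Ttr and 0.07 after trends with GC content and transcript length were removed. Rps25 was at 68.0, 66.5 and 69.1 CPM in SED, 78.0, 78.4 and 74.3 in SUS and 78.7, 73.6 and 79.6 in SUS_LE (0.18 ± 0.05, adjusted p 0.442), with both restrained groups at the same height. Rpl26 was at 183, 191 and 184 CPM in SED, 218, 203 and 208 in SUS and 205, 196 and 205 in SUS_LE (0.14 ± 0.04). Ribosomal protein genes have many processed pseudogenes, and how the counting treated reads shared with them is not given in the sources used here.

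The promoters of Nr4a1 and Rpl26 are shown because Nr4a1 leads the immediate-early genes and Rpl26 is a ribosomal gene of this comparison whose promoter holds a whole CRE. The sequences are the 200 bases before each start site in RefSeq on GRCm38.p6, plus strand, chr15:101266646-101266845 for Nr4a1 and chr11:68901366-68901565 for Rpl26, with the CRE (TGACGTCA) or its core (TGACG, read on either strand) in capitals.
Nr4a1: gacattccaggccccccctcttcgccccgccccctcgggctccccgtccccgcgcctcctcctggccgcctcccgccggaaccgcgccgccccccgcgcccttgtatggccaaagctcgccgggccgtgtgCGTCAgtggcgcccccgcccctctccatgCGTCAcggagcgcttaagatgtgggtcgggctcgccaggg
Rpl26: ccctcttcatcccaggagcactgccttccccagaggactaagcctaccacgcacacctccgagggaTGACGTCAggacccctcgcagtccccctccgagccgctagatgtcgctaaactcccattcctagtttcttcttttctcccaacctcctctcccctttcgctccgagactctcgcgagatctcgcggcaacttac
Searched on both strands, the whole CRE was in 1.79% and the core in 20.8% of 32851 RefSeq promoter windows of 300 bases, from 250 before to 50 after a start site. A match is a description of the letters, not a bound site. The table matched 77.6% of the 344 genes with all 6 restrained libraries above SED, under the 80% needed, so no share over those genes is given.

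Other housekeeping groups leaned the same way by small amounts. Over all tested genes 51.2% had higher values, and 4.35% with higher and 4.5% with lower values had an unadjusted p under 0.05. The respiratory chain's nuclear genes stood higher in 64 of 77 cases (median 0.06, 9 higher and 1 lower with such a p). Cox6b1 and Ndufa5 were among the 7 with all 6 restrained libraries above SED (2.14% of all tested genes). Proteasome subunits had higher values in 38 of 43 (median 0.06, 5 higher and 0 lower with such a p), with Psmd4 (0.17, and 0.08 with the choroid plexus covariate) at 68.7, 68.5 and 66.6 CPM in SED, 88.8, 73.8 and 78.3 in SUS and 75.1, 70.5 and 72.1 in SUS_LE. The autophagy and proton pump list had higher values in 34 of 42 (median 0.06, 9 higher and 0 lower with such a p), led by Atp6v0c (0.14) and Gabarapl1 (0.15, and 0.08 with the covariate). The 13 genes encoded by mitochondrial DNA had no common direction: their median was -0.11 in SUS and 0.10 in SUS_LE, and 1 of them, ATP8, which overlaps ATP6, was at 3430, 3290 and 3580 CPM in SED, 2870, 3080 and 2800 in SUS and 3490, 3570 and 4030 in SUS_LE (SUS_LE against SUS, adjusted p 0.0922).

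Of 43 tubulin, stathmin and kinesin genes 24 had higher (51.2% of all tested genes) and 19 lower values, with a median of 0.02. An unadjusted p under 0.05 was found for 8 with higher (4.35% of all tested genes) and 4 with lower values (4.5%). The 8 with higher values were Tuba4a, Tubb3, Tubb4a, Tubb5, Klc1, Stmn2, Stmn3 and Stmn4, and the 4 with lower values were Kif1c, Kif5b, Kif13b and Kif26b. Stmn3, a stathmin that binds free tubulin, was at 281, 281 and 272 CPM in SED, 346, 311 and 320 in SUS and 291, 310 and 297 in SUS_LE (0.17 ± 0.05), with all 6 restrained mice above SED. Kif13b was at 42.4, 47.4 and 41.3 CPM in SED and 37.7 to 38.8 in the 6 restrained mice (-0.19 ± 0.06), a narrow range in both restrained groups. Tubb3 had 0.23 in SUS and 0.01 in SUS_LE (unadjusted p between them 0.00183, adjusted p 0.141).

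**Figure D2:**
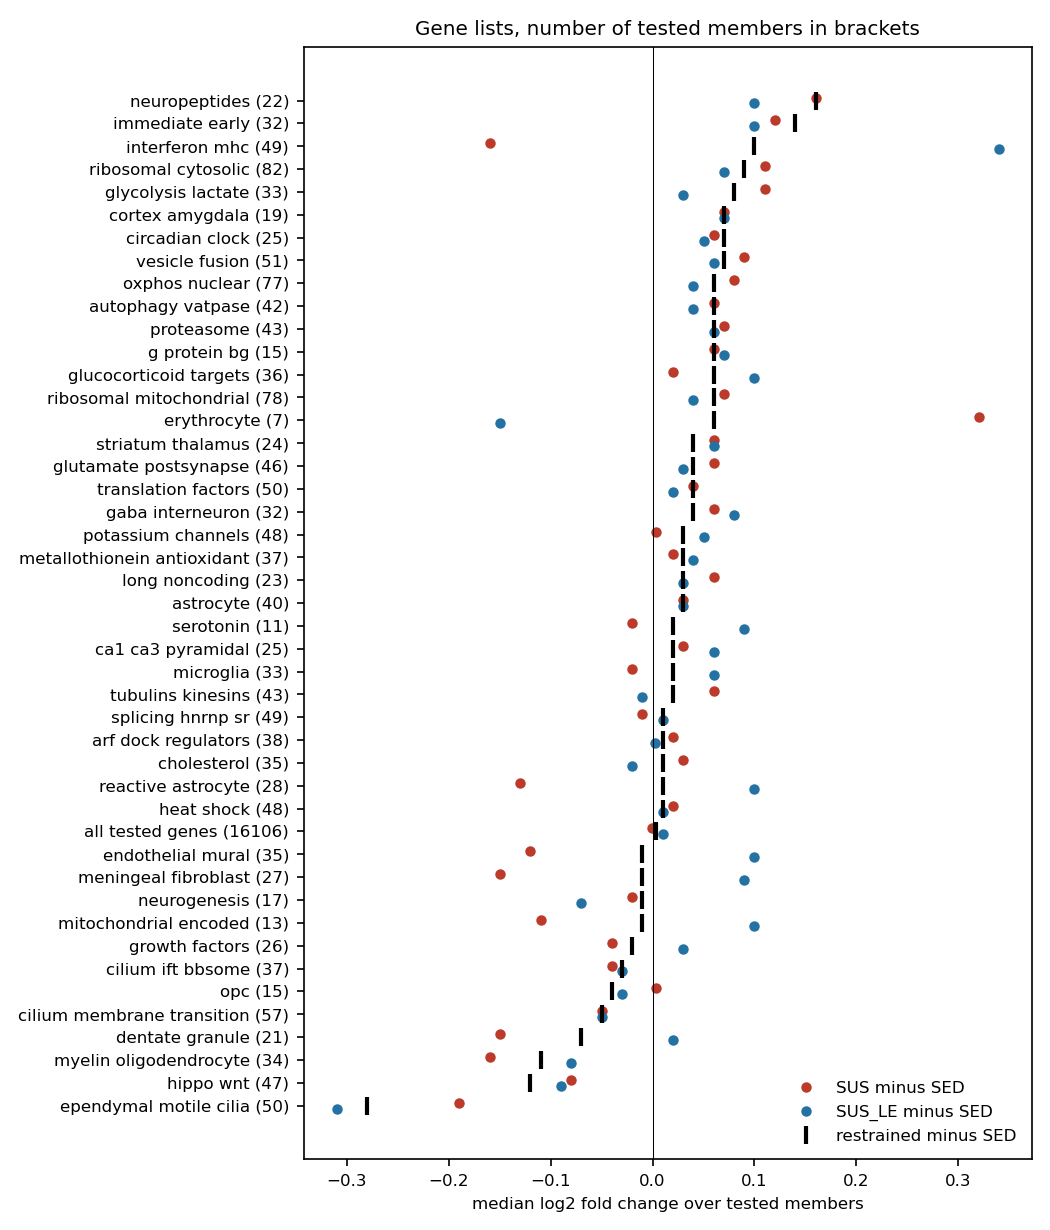
Median log2 difference from SED over the tested members of each gene list, for all restrained mice (black bars), SUS (red) and SUS_LE (blue), with the number of tested members in brackets; the choroid plexus list, at -1.46, is off the scale and left out. Neuropeptides (0.16) and immediate-early genes (0.14) are at the top, ependymal genes (-0.28), hippo and Wnt genes (-0.12) and myelin genes (-0.11) at the bottom, and the interferon and mitochondrially encoded lists have red and blue on opposite sides of 0.

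Myelin and oligodendrocyte genes leaned lower. Only 3 of 34 had higher values (51.2% of all tested genes), and the median was -0.11. An unadjusted p under 0.05 was found for 10 with lower (4.5% of all tested genes) and 1 with higher values (4.35%), Olig2 (0.19). Ugt8a, which makes the myelin lipid galactosylceramide, was at 46.1, 45.0 and 46.2 CPM in SED, 34.3, 41.6 and 35.4 in SUS and 39.6, 40.9 and 40.4 in SUS_LE (-0.24 ± 0.06, adjusted p 0.442). Ugt8a and Trf were the 2 with all 6 restrained mice below SED (1.81% of all tested genes). Mbp (-0.17), a main myelin protein, had lower values in both groups. Tspan2 was at 89.6, 93.5 and 92.7 CPM in SED, 63.4, 79.2 and 70.5 in SUS and 96.0, 89.6 and 81.9 in SUS_LE, and the SUS mice were below all others (SUS_LE against SUS, adjusted p 0.106). The list score was 0.08, 0.17 and 0.10 in SED, -0.21, 0.01 and -0.07 in SUS and 0.09, -0.02 and -0.15 in SUS_LE, and SUS_LE 1 overlapped SED. The list median was -0.10 with the choroid plexus covariate and -0.13 without the 3 libraries lowest in Ttr.

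Hippo and Wnt pathway genes also leaned lower: 38 of 47 had lower values, where 51.2% of all tested genes had higher ones, and the median was -0.12. An unadjusted p under 0.05 was found for 9 with lower (4.5% of all tested genes) and 1 with higher values (4.35%), Taok3 (0.11). Lrp6, Mob1b (-0.28) and Tead2 (-0.60), a transcription factor at the end of the Hippo pathway, were among the 4 with all 6 restrained mice below SED (1.81%). Taok1, a kinase that feeds into the Hippo pathway, was at 259, 243 and 249 CPM in SED, 175, 214 and 201 in SUS and 234, 242 and 247 in SUS_LE. Fat4, a giant cadherin upstream of it, was at 43.2, 45.3 and 43.7 CPM in SED, 31.2, 30.7 and 36.5 in SUS and 44.5, 41.8 and 40.1 in SUS_LE. In both, the SUS mice were below all others, and SUS_LE against SUS had adjusted p of 0.0922 and 0.0984. The list median was -0.04 with the choroid plexus covariate and -0.06 after GC and length trends were removed, and on the list score SUS 3, at 0.08, lay within the SED range of 0.06 to 0.10.

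The study's title concerns primary cilia, the single antenna-like organelle of most cells. Of 57 genes of the ciliary membrane and transition zone, 39 had lower values (median -0.05, and -0.02 after GC and length trends were removed). An unadjusted p under 0.05 was found for 4 with lower (4.5% of all tested genes) and 1 with higher values (4.35%), B9d2 (0.32). Ptch1, the Hedgehog receptor, was at 48.4, 55.4 and 47.5 CPM in SED, 40.5, 43.4 and 47.2 in SUS and 43.6, 45.9 and 43.8 in SUS_LE (-0.19 ± 0.06, adjusted p 0.485), all 6 restrained mice being below SED and SUS 3 close to it. Its difference was -0.11 with the choroid plexus covariate, -0.12 after GC and length trends were removed and -0.12 at the smallest with 1 library left out. Tmem216, a transition zone protein, was at 2.74, 3.15 and 2.70 CPM in SED and 1.49 to 2.54 in restrained mice (-0.61 ± 0.21). Of 37 genes of intraflagellar transport and the BBSome 24 had lower values (median -0.03), but the sign of the median turned with the covariate (0.03), after GC and length trends were removed (0.0032) and without the 3 libraries lowest in Ttr (0.0012). Dync2h1, the motor of return transport, was the 1 of them with an unadjusted p under 0.05 (-0.19), against 4.5% of all tested genes with such a p and lower values, and it was at -0.04 with the covariate (unadjusted p 0.601) and -0.09 after the trends were removed. Genes of motile cilia and ependyma had lower values in 40 of 50 cases (median -0.28, 0.06 with the choroid plexus covariate). Of these genes 5 with lower (4.5% of all tested genes) and 0 with higher values (4.35%) had an unadjusted p under 0.05. Odad1 had the smallest p of the list (-0.58 ± 0.17, adjusted p 0.485) and was at -0.32 with the covariate. None of the 50 had all 6 restrained mice above (2.14% of all tested genes) or below SED (1.81%).

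**Figure D3:**
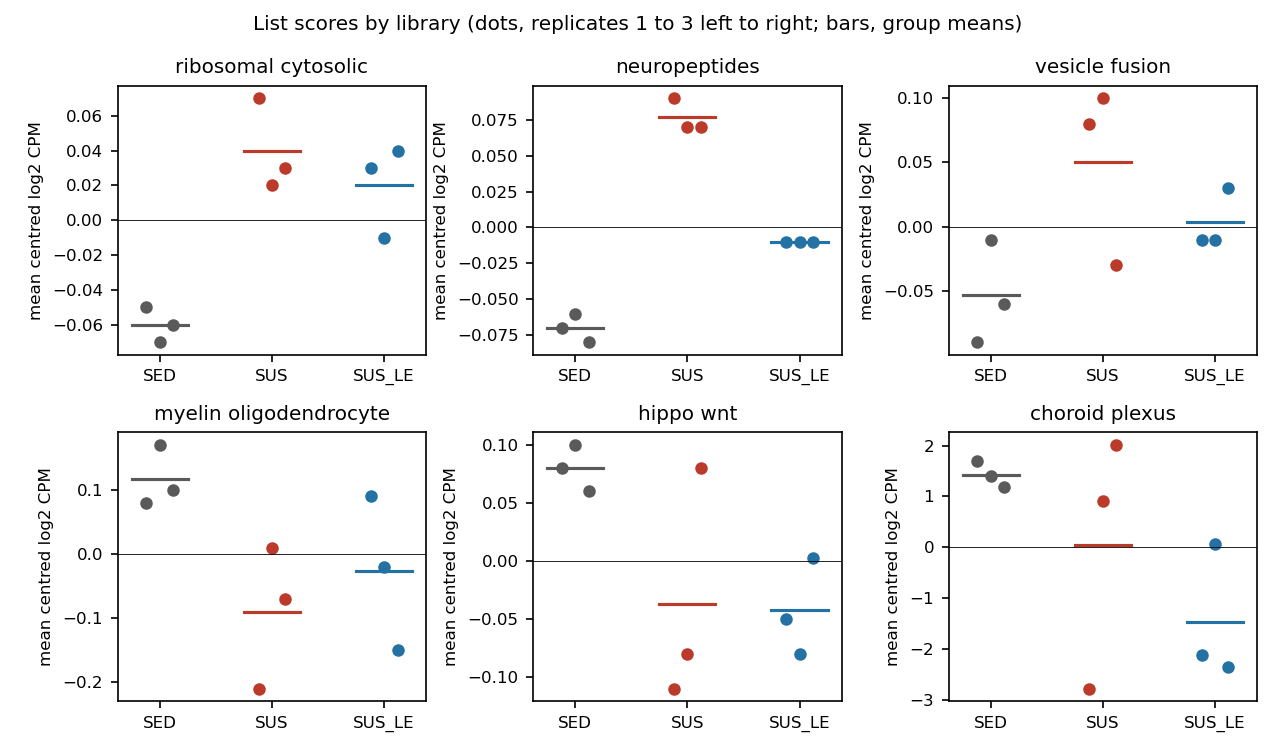
Mean centred log2 CPM over the members of 6 gene lists in each library, dots from left to right being replicates 1 to 3 and bars group means. For ribosomal and neuropeptide genes all 6 restrained libraries lie above SED. For myelin genes SUS_LE 1 (0.09) and for hippo and Wnt genes SUS 3 (0.08) reach into the SED range. For vesicle fusion genes SUS 3 (-0.03) does so, and SUS_LE 1 and 2 (-0.01 each) are level with SED 2. The choroid plexus score spans from -2.79 in SUS 1 to 2.02 in SUS 3.

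The medians of some lists had opposite signs in the restrained groups. Interferon and MHC genes had a median of -0.16 in SUS and 0.34 in SUS_LE, and 36 of the 49 tested had higher values over all restrained mice, 4 of them with an unadjusted p under 0.05 (4.35% of all tested genes), as did 1 with lower values (4.5%). Single members had the same sign in both groups, such as Oas2, an antiviral enzyme (1.85 in SUS and 1.82 in SUS_LE, at no more than 1.29 CPM in any library, and pooled 1.84, or 1.02 with the choroid plexus covariate), and H2-K1, an MHC class I gene (0.32 and 0.51). H2-D1, of the same class, was at 12.8, 15.4 and 13.2 CPM in SED, 14.9, 13.3 and 16.2 in SUS and 18.9, 21.6 and 19.6 in SUS_LE (SUS_LE against SUS, unadjusted p 0.000678, adjusted p 0.116). Acap2, a regulator of the small G-protein Arf6, had the smallest adjusted p between the restrained groups, 0.056: it was at 178, 163 and 178 CPM in SED, 136, 143 and 138 in SUS and 177, 178 and 171 in SUS_LE. The SUS mice were below both other groups, and the exercised mice level with SED. No gene passed an adjusted p of 0.05 for SUS_LE against SUS (0% of 16106), where DESeq2 called 180 genes and 2205 (13.7%) had an unadjusted p under 0.05.

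The direction of the differences went with GC content and transcript length. For the 14913 tested genes with both values in the GENCODE M21 annotation (92.6%), Spearman's rank correlation of the log2 difference was 0.21 with GC content and -0.214 with length, across genes, which are not independent replicates. Genes with all 6 restrained libraries above SED had a median GC content of 52.2% and transcript length of 2557 bases, those below 45.5% and 5327 bases, and all tested genes 49.7% and 3418 bases. From the lowest to the highest GC decile the median log2 difference went from -0.09 to 0.10 in SUS but only from 0.01 to -0.01 in SUS_LE. From the shortest to the longest decile it went from 0.07 to -0.08 in SUS and from 0.04 to -0.02 in SUS_LE, so the length trend had the same sign in both and the GC trend did not. In the longest decile 5.83% of genes were wholly below and 0.469% wholly above SED. After per-library trends with both were removed, 775 genes with higher and 449 with lower values had an unadjusted p under 0.05, Lrp6 moved to -0.23, Akap9 to -0.14 and Rock1 to -0.17, while Doc2a was at 0.60 and Trf at -0.22. Bbln and Gm32584 have no GC value and were not adjusted. The 24 highest-ranked genes all had an unadjusted p under 0.05 there, as in every setting. They were picked by p in these same libraries, so this count is not independent support. The part of GC and length in the remaining differences was not tested.

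**Figure D4:**
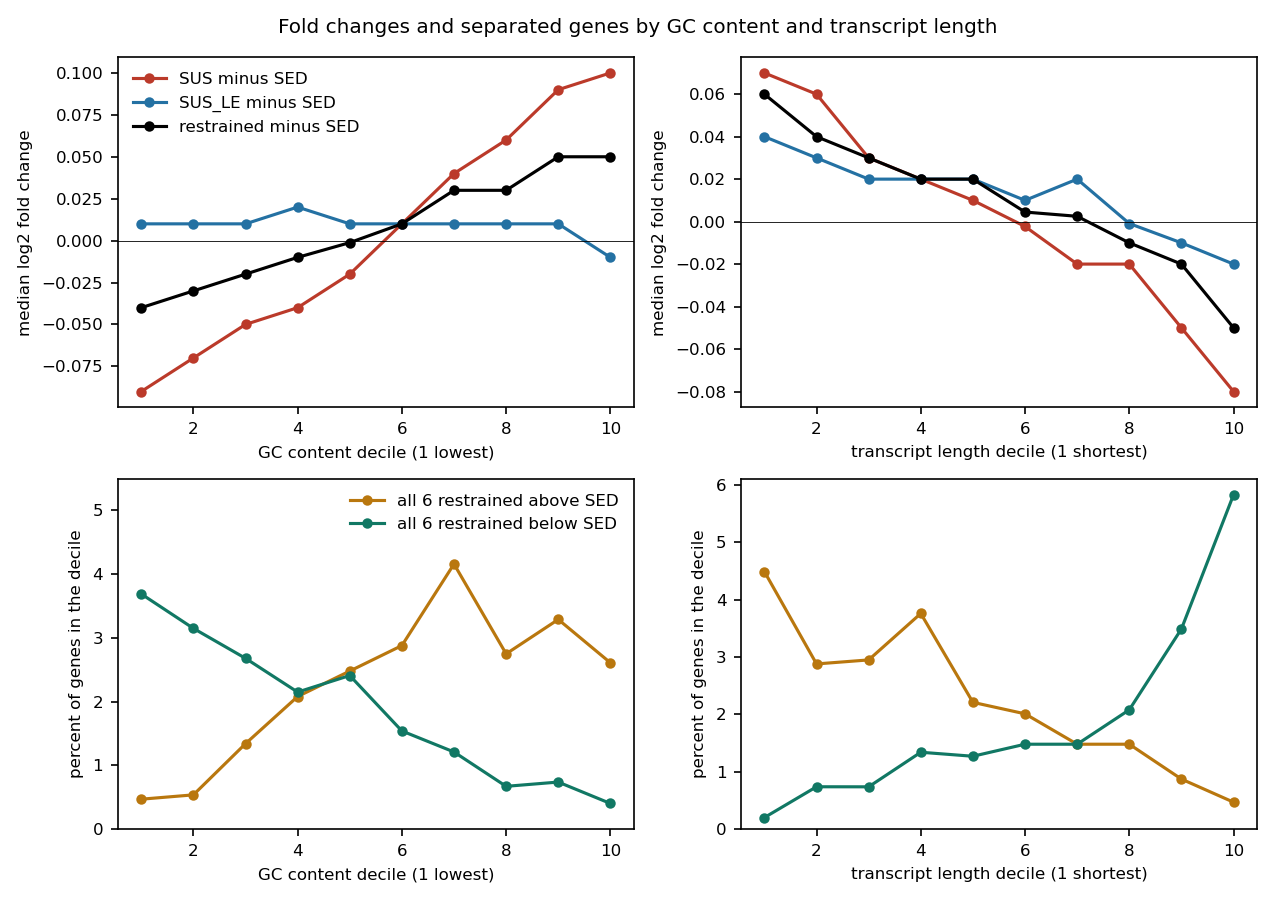
Top, median log2 difference from SED in each decile of the genes ordered by GC content (left) and transcript length (right), for all restrained mice (black), SUS (red) and SUS_LE (blue); bottom, the percent of genes in each decile with all 6 restrained libraries above (ochre) or below (green) all SED libraries. The red line climbs with GC content from -0.09 to 0.10 while the blue one stays near 0, and the green line climbs with length to 5.83%.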

How the data were processed

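The authors deposited gene counts (whole numbers) for each of the 9 libraries. Per the submitters' processing notes, fastp, STAR and Salmon were used with GRCm39; versions, annotation, strand setting, use of molecular identifiers and rounding are not given in the sources used here. The labels call each library a separate mouse, and no 2 libraries of the same group agreed within sampling noise (chi-square per degree of freedom 2.77 to 15.5). Pairs from different groups were not compared in this way. From the counts, edgeR 4.0.16 in R 4.3.3 (TMM factors, filterByExpr, robust quasi-likelihood fit, biological coefficient of variation 0.0845) gave the mean of SUS and SUS_LE minus SED, with each group keeping its own mean, and SUS_LE minus SUS. P-values were adjusted over all 16106 tested genes. CPM values use the same factors, and list scores add a prior count of 2. Log2 differences are the fitted fold changes. Alternatives were DESeq2 1.42.0, limma 3.58.1, other scaling factors and filters, 2 arms without exercise, a replicate block, a choroid plexus covariate, GC and length offsets, and libraries left out. DESeq2 without independent filtering was added after seeing the data.

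Named genes were, among genes with the same sign in both restrained groups and mean log2 CPM above 0, the 12 of lowest p with higher and the 12 with lower values, the 3 members with the smallest p of each of 45 lists (1558 distinct tested genes), and Nr3c1, Nr3c2, Fkbp5, Fos, Bdnf, Ttr and Acap2; other list members are named where a count is spelled out, after their values were seen. A gene that the rule names is not reported here. The comparison, the members and the lists were chosen with earlier results of these data known. GC content and length came from the longest GENCODE M21 transcript (GRCm38), promoters from RefSeq. The fit was tested on simulated counts.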

Additional observations from a re-analysis of the deposited data

Results flagged for a closer look

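Among the 148 named genes, 12 had a restrained mouse far from the other 5, where about 1 in 20 would by chance; each value is the gap to the nearest mouse divided by the range of the 6. SUS 1 was the outlying mouse in 6. It was highest for the neuronal genes Eno2 (0.768; 575 CPM against 489 to 508), Rbfox3 (0.647; 290 against 226 to 247), Gnb1 (0.703; 525 against 457 to 477), Adap1 (0.651; 84.7 against 73.3 to 77.1) and Kcnn1 (0.721; 10.4 against 8.5 to 8.99), and lowest for Pdk3 (0.695; 74.6 against 84.9 to 89.8). SUS 3 was highest in 4: Kcnh1 (0.791; 44 against 32.5 to 34.6), Igfbp2 (0.7; 56.7 against 15.7 to 23), Odad1 (0.639; 7.33 against 3.34 to 4.44) and Dock6 (0.695; 36.9 against 27.4 to 30). SUS 2 was lowest for the astrocyte gene Gfap (0.649; 197 against 229 to 248), and SUS_LE 3 highest for Ccl27a (0.668; 49.8 against 41.9 to 44.4). SUS 1 had the lowest and SUS 3 the highest choroid plexus score, and their part in these values was not tested.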

How the results depend on the processing

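The count of 0 genes for restrained against SED held under DESeq2, limma, both other scalings, the stricter filter, 2 arms, no robust step, the choroid plexus covariate and GC and length offsets. It was 146 (28 higher, 118 lower, 146 shared) without a filter, 8 (2 higher, 6 lower, 6 shared) without the 3 libraries lowest in Ttr, and 1 (lower, adjusted p 1.33e-05) with DESeq2 without independent filtering. Leaving out 1 library gave 0 to 110 (0 to 6 higher, 0 to 104 lower, 0 to 110 shared), the highest without SUS 3. Genes wholly above and below SED numbered 392 to 887 and 354 to 798 with 1 library left out and 1049 and 981 without the 3 lowest in Ttr, fewer libraries having to be apart. Unadjusted p under 0.05 with higher values was found for 432 genes with DESeq2 (432 without its filtering), 370 with the covariate, 443 without the 3 libraries and 406 to 783 with 1 left out; with lower values for 1281 without a filter, 413 with the covariate, 449 with GC and length offsets and 489 to 1247 with 1 left out. SUS_LE against SUS called 180 with DESeq2, 73 without its filtering, 430 without a filter, 439 with the covariate, 20 without the 3 libraries, 1 each with the stricter filter and no robust step, and 0 to 184 with 1 left out, the highest without SUS 2. The causes were not tested.

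Of 9 same-numbered pairs of libraries 2 correlated above 0.1 (-0.12 to 0.18). With so few mice in a group, these correlations cannot decide whether replicate numbers pair mice. The file headers number the exercised libraries differently from the labels, whose numbers were used. With the replicate block, restrained against SED called 0 genes and SUS_LE against SUS 1. The sign turned for Ttr with the covariate (0.51), Kcnq1ot1 with GC and length offsets (0.02) and Fkbp5 without SED 2 (-0.02) or SUS_LE 2 (-0.01), of a range from -0.02 to 0.12 with 1 library left out. Of 3254 values of the 148 named genes 3201 kept direction and side, and 49 passed the threshold, 30 of them without a filter and 17 without SUS 3. Of 990 list medians 50 moved by more than the spread between mice, 14 with the covariate. At 14172344 to 15582304 counts, genes of a few CPM carry the largest errors.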

Other observations

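Chtf8, which was chosen after its values were seen, was at 34.5, 35.0 and 6.35 CPM in SED, 35.7, 34.9 and 35.6 in SUS and 0 in each SUS_LE library. Derpc, which RefSeq places on the same coordinates, was at 0.421, 0 and 31.0 CPM in SED, 3.92, 0.416 and 1.44 in SUS and 36.3, 34.7 and 34.4 in SUS_LE. The sum of Chtf8 and Derpc was 34.4 to 39.6 CPM over the 9 libraries.

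Moap1, an adaptor of apoptosis, and Gm20604 also overlap. Moap1 was at 14.3, 11.4 and 16.4 CPM in SED, 17.3, 24.2 and 26.3 in SUS and 34.2, 20.1 and 30.2 in SUS_LE, with all 6 restrained mice above SED. Gm20604 was at 22.5, 24.9 and 22 CPM in SED, 18.4, 16.2 and 15.4 in SUS and 6.98, 21.2 and 11.2 in SUS_LE, with all 6 below, and their sum was 35.7 to 41.7 CPM. Of the tested genes 14 were above 10 CPM in at least 1 library and at 0 in another. How the counting divided shared reads was not tested.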
